A study of Mus musculus with 2 samples.

Results

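Genes of RNA polymerase I and of its initiation and termination factors were examined: Polr1a, Polr1b, Polr1c, Polr1d, Polr1e, Ubtf, Taf1b, Taf1d, Rrn3 and Ttf1. They were chosen by symbol, and each symbol matched 1 of the 53700 features in both count tables, which gives 10 genes. RNA of single nuclei was sequenced from the quadriceps, the extensor muscle of the front thigh, of C57BL/6N mice aged 3 months. PTRF knockout mice lack Cavin1 (older symbol Ptrf) and were set against wild-type (WT) mice of the same strain and age, with 1 library per genotype. No source used here gives the number of animals behind each library or their sex. With 1 library on each side the differences have no replicate check and no test was made, so that every interval below is a 95% interval that covers counting error only.

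RNA polymerase I transcribes a single kind of gene, the ribosomal DNA repeats of the nucleolus, into the precursor of the 18S, 5.8S and 28S ribosomal RNAs. Ubtf coats the repeats, the selectivity factor SL1 (TIF-IB in the mouse) marks the promoter, Rrn3 recruits the polymerase to it, and Ttf1 binds the terminator where elongation stops. Cavin1 was first described as a factor that releases the paused polymerase and its transcript at that terminator, and was later found to be a coat protein of caveolae, the small pits of the plasma membrane that are abundant in muscle, fat and endothelium.

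After filtering, 7762 knockout nuclei and 10272 WT nuclei remained, with 16045678 and 9741924 unique molecular identifiers (UMIs, each counted as 1 captured transcript). The median nucleus held 1562 UMIs in the knockout and 703 in WT, so levels are given as UMIs per 1000000 of the summed total (CPM) and were also compared at matched depth. Cavin1 itself had 2 UMIs in the knockout library and 75 in WT. Nuclei with Xist and no Y-linked UMIs numbered 1527 in the knockout and 2 in WT, while nuclei with Y-linked and no Xist UMIs numbered 3103 and 2721, in that order, so that the knockout library held both sex signals and WT almost 1 alone. The 2 libraries shared 24 barcodes. No doublet caller was run and doublets stayed in. Xist and Y-linked UMIs occurred together in 221 nuclei of the knockout.

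The start regions of 4 of the genes are shown because 3 of them (Polr1d, Taf1b and Taf1d) had the largest differences between the libraries and the fourth, Rrn3, was the only gene of the 10 with the E-box searched for. Each is 300 bases from RefSeq on GRCm38.p6, from 250 bases before to 50 after the annotated start, read 5′ to 3′ on the strand of the gene, here the plus strand in every case. The gene spans printed further below come from GENCODE, whose starts can differ from those of RefSeq. The region of Polr1d lies wholly within its GENCODE span and that of Taf1b mostly so. Capitals mark matches, on either strand, of the E-box CACGTG and the ETS-type motif CCGGAAGT.
Taf1d, chr9:15305964-15306263: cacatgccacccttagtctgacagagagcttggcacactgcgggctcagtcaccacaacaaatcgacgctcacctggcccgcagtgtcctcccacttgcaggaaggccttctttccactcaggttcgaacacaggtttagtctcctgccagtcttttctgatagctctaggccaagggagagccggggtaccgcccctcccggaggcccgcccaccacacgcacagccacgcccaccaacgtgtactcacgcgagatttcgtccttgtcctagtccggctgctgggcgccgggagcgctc
Taf1b, chr12:24498331-24498630: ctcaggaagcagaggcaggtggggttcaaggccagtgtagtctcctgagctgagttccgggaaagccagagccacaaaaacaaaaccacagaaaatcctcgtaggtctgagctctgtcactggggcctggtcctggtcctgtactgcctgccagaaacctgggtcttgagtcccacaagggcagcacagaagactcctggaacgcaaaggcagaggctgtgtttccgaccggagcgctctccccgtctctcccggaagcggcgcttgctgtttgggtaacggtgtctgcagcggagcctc
Polr1d, chr5:147077096-147077395: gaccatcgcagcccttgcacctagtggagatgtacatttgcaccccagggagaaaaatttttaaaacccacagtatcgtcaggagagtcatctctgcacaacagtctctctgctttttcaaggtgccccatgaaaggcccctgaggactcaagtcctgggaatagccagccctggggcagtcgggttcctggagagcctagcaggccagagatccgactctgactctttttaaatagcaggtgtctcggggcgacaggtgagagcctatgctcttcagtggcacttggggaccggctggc
Rrn3, chr16:13780449-13780748: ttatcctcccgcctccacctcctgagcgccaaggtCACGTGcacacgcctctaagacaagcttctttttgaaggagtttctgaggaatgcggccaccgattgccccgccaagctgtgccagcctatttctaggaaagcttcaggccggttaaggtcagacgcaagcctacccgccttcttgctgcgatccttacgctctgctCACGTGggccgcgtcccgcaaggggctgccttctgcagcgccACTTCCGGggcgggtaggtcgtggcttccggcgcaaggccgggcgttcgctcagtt

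Rrn3 carried 2 matches of CACGTG and 1 of CCGGAAGT, whereas Taf1d, Taf1b and Polr1d carried neither. CACGTG was in 7.15% of all 32851 start regions of this length and CCGGAAGT in 3.89%. The second motif was also found in the start regions of Polr1c, Polr1e and Ttf1, the last with 2 matches. TATAAA, which is in 13.6% of start regions, was in none of the 15 that belong to these 10 genes (Ubtf has 6, each other gene 1). A match is a run of letters and was not read as a binding site.

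Across the whole of each library, the polymerase I genes as a set were at nearly the same level in the 2 genotypes, while 3 members stood apart. Polr1d, a subunit shared with polymerase III, and Taf1b, a subunit of SL1, were higher in the knockout library by 0.93 and 0.71 on the log2 scale. Taf1d, another subunit of SL1, was lower by a log2 ratio of -0.60. The 10 genes together had 4121 UMIs in the knockout and 2751 in WT, which is 257 CPM and 282 CPM, a log2 ratio of -0.14 (-0.21 to -0.07). Of these UMIs Taf1d supplied 1268 in the knockout and 1167 in WT, the most of any member. The summed level here and below therefore leans on Taf1d. Taken singly, 6 of the 10 genes had a log2 ratio above 0 and 4 below. At a difference of 1.5-fold, 2 of the 10 were higher in the knockout, where 20% of the 17785 genes with at least 20 UMIs were, and 1 was lower, where 27.1% of those genes were. These shares are near or below the background of all genes. The median log2 ratio was 0.11 over the 10 genes and 0.04 over all genes, and no member passed 2-fold, against 8.51% of all genes higher and 21.1% lower.

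**Figure D1:**
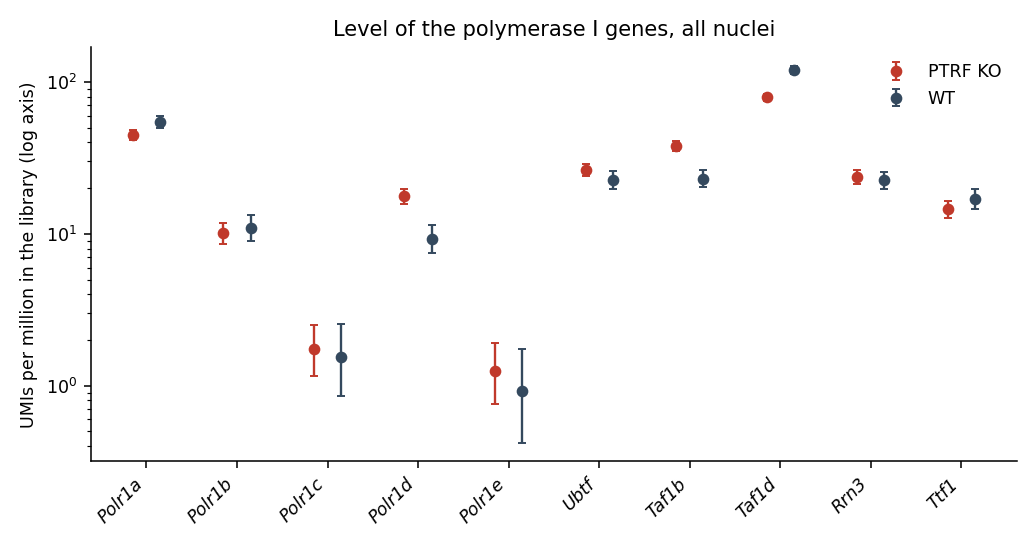
Level of each gene in the PTRF KO library (red) and the WT library (dark), in CPM on a log axis, with exact Poisson intervals for counting error. Taf1d was the highest in both libraries (79.0 and 120 CPM) and Polr1c and Polr1e lay near 1 to 2 CPM.

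The large subunits of the enzyme came first. Polr1a (ENSMUSG00000049553, chr6:71909053-71984935, plus strand, GRCm38) encodes the largest subunit and Polr1b (ENSMUSG00000027395, chr2:129100995-129126594, plus strand) the second largest, and together they form the catalytic centre. Polr1a had 720 UMIs in the knockout and 532 in WT, or 44.9 CPM and 54.6 CPM, a log2 ratio of -0.28 (-0.45 to -0.12). Its UMIs were in 8.32% of knockout nuclei and 4.85% of WT nuclei as sequenced, a share that grows with depth and was the other way round at matched depth. Polr1b had 162 UMIs in the knockout and 107 in WT, or 10.1 CPM and 11.0 CPM, with an interval of the log2 ratio from -0.48 to 0.24 that takes in no difference. An antisense gene, Gm26628, and a processed pseudogene, Gm19078, lie on the opposite strand within Polr1a, and no source used here says whether counting used the strand.

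Among the smaller subunits, the level differed for Polr1d and the counts were too few to say for the rest. Polr1c (ENSMUSG00000067148, chr17:46243920-46248054, minus strand) and Polr1d (ENSMUSG00000029642, chr5:147077050-147111597, plus strand) encode a pair of subunits that polymerases I and III share, and variants of both human genes cause Treacher Collins syndrome. Polr1d had 283 UMIs in the knockout and 90 in WT, or 17.6 CPM and 9.24 CPM, a log2 ratio of 0.93 (0.59 to 1.29). Polr1c had 28 UMIs in the knockout and 15 in WT, with a log2 ratio of 0.16 (-0.77 to 1.19). Polr1e (ENSMUSG00000028318, chr4:45018583-45036565, plus strand), a subunit particular to polymerase I that takes part in binding the initiation factors, had 20 UMIs in the knockout and 9 in WT, with a log2 ratio of 0.39 (-0.77 to 1.75). At this depth neither Polr1c nor Polr1e could be told from a difference of 1.5-fold in either direction. Polr1e overlaps Fbxo10, and Polr1d a processed pseudogene, Rps10-ps4, both on the opposite strand.

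The 2 subunits of SL1 differed in opposite directions. Taf1b (ENSMUSG00000059669, chr12:24498359-24558539, plus strand) encodes a TFIIB-like subunit of SL1, and Taf1d (ENSMUSG00000031939, chr9:15306214-15316991, plus strand) a smaller one. Taf1b had 606 UMIs in the knockout and 225 in WT, or 37.8 CPM and 23.1 CPM, a log2 ratio of 0.71 (0.49 to 0.94). Taf1d had 1268 UMIs in the knockout and 1167 in WT, or 79.0 CPM and 120 CPM, a log2 ratio of -0.60 (-0.72 to -0.48), which lies close to the 1.5-fold line of 0.58. The intervals of the 2 genes do not overlap. Taf1d is a host gene: 8 snoRNA genes lie inside it on its own strand, and the 7 of them among the features had 0 UMIs in either library, which by a limit of 3 UMIs allows up to 0.187 CPM in the knockout and 0.308 CPM in WT. The opposite strand of Taf1d holds parts of Cep295, with 379 UMIs in the knockout and 213 in WT (log2 ratio 0.11), and of 4931406C07Rik, with 502 and 185 UMIs, in that order (log2 ratio 0.72). Whether UMIs of either neighbour entered the count of Taf1d was not tested. Taf1b has a processed pseudogene, Gm47482, on its opposite strand.

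Over all nuclei the remaining factors differed little. Ubtf (ENSMUSG00000020923, chr11:102304560-102319742, minus strand), which encodes the upstream binding factor UBF, had 422 UMIs in the knockout and 221 in WT, or 26.3 CPM and 22.7 CPM, a log2 ratio of 0.21 (-0.02 to 0.45). Rrn3 (ENSMUSG00000022682, chr16:13780708-13814839, plus strand), which encodes the growth-regulated factor TIF-IA, had 379 UMIs in the knockout and 219 in WT, or 23.6 CPM and 22.5 CPM, a log2 ratio of 0.07 (-0.17 to 0.32). Ttf1 (ENSMUSG00000026803, chr2:29060262-29087656, plus strand), the terminator-binding protein with which Cavin1 was described to act, had 233 UMIs in the knockout and 166 in WT, or 14.5 CPM and 17.0 CPM, a log2 ratio of -0.23 (-0.52 to 0.07). All 3 intervals take in no difference.

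Levels of different genes were set against each other per length of gene. Division by the whole length supposes that UMIs from introns were counted, which no source used here states, so the order holds on that scale only. On the scale of CPM per kilobase of gene, Taf1d was the highest member in both libraries, at 7.33 in the knockout and 11.1 in WT, and Ubtf followed at 1.73 and 1.49, in the same order of libraries. Polr1e was the lowest, at 0.0693 in the knockout and 0.0514 in WT. The 7 genes between lay from 0.394 (Polr1b) to 0.692 (Rrn3) in the knockout and from 0.267 (Polr1d) to 0.720 (Polr1a) in WT. In the knockout the intervals of Rrn3 (0.624 to 0.765), Taf1b (0.579 to 0.680) and Polr1a (0.549 to 0.636) overlapped from each to the next, as did those of Ttf1, Polr1d, Polr1c and Polr1b, so that this order is not resolved. In WT those of Polr1a (0.660 to 0.783), Rrn3 (0.574 to 0.752) and Ttf1 (0.531 to 0.724) overlapped likewise.

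**Figure D2:**
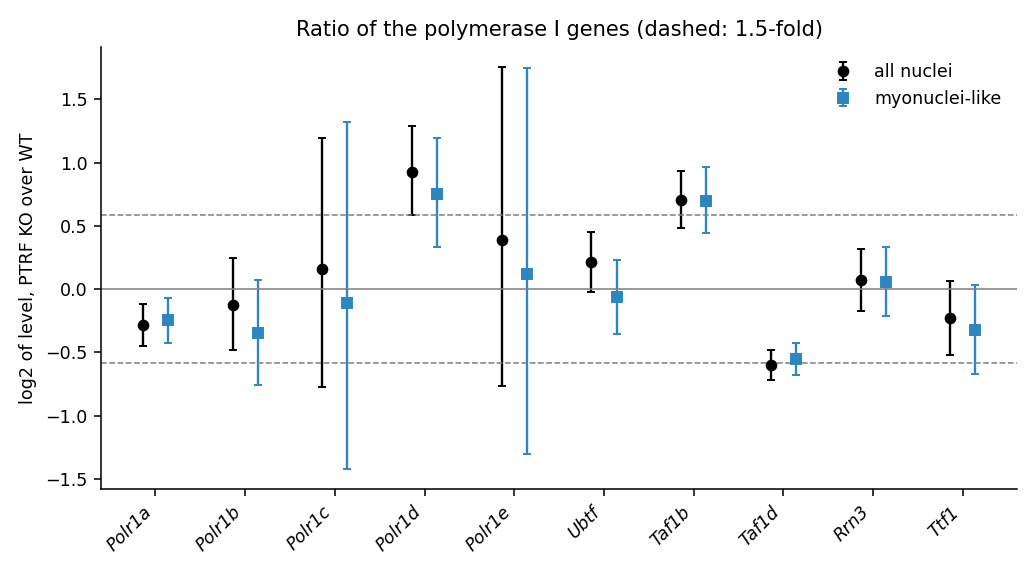
Log2 ratio of the level in PTRF KO over WT for each gene, over all nuclei (black circles) and over myonuclei-like nuclei (blue squares), with exact 95% counting intervals and dashed lines at 1.5-fold. Polr1d and Taf1b lie above 0 and Polr1a and Taf1d below 0 in both sets.

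Within nuclei of muscle fibres the same 4 genes differed in the same directions. Nuclei were clustered without any of the 10 genes among the variable genes used, and clusters were given a class name with "-like" from markers, which left 5409 knockout and 8219 WT myonuclei-like nuclei. Different clusters held most of them, clusters 1, 4, 5 and 10 in the knockout and clusters 0, 2, 3 and 9 in WT. In these nuclei Taf1d was at 84.5 CPM in the knockout and 124 CPM in WT, a log2 ratio of -0.55 (-0.68 to -0.43), and Polr1a at 48.4 CPM and 57.4 CPM, in the same order, a log2 ratio of -0.25 (-0.42 to -0.07). Taf1b was at 35.1 CPM in the knockout and 21.6 CPM in WT (log2 ratio 0.70, 0.44 to 0.96) and Polr1d at 13.6 CPM and 8.08 CPM, in that order (log2 ratio 0.75, 0.33 to 1.19). Ubtf differed less than over all nuclei, with 19.4 CPM in the knockout and 20.3 CPM in WT and a log2 ratio of -0.06. Of the 9 members with at least 20 UMIs here, 2 were higher past 1.5-fold, where 12.6% of 15218 genes were, and 0 lower, where 30.8% were. The median of all genes in this class was -0.11, so that relative to it Taf1b and Polr1d stood slightly further out and Taf1d and Polr1a slightly less.

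Single clusters that held at least 100 nuclei of each library were compared as well, a comparison added after the values were seen. There were 7 such clusters, 5 of them myonuclei-like. Taf1d was lower in the knockout in 6 of the 7, with an interval wholly below 0 in 4. In cluster 10, led by Nr4a3, Taf1d was at 107 CPM in the knockout and 192 CPM in WT. In cluster 4, led by Scn2a, it was at 74.9 CPM in the knockout and 117 CPM in WT. Taf1b was higher in the knockout in all 7, but no single interval excluded 0. Polr1d was higher in 4 of the 7, and in cluster 4 alone its interval excluded 0, with 20.0 CPM in the knockout and 6.02 CPM in WT. Polr1a was lower in 5 and higher in 2, with 1 interval below 0. Ttf1 was lower in 6, with 2 intervals below 0. Rrn3 was higher in 5, with an interval above 0 in cluster 2, where it had 15 UMIs in the knockout and 26 in WT, or 49.0 CPM and 15.5 CPM, a log2 ratio of 1.68 (0.64 to 2.63).

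**Figure D3:**
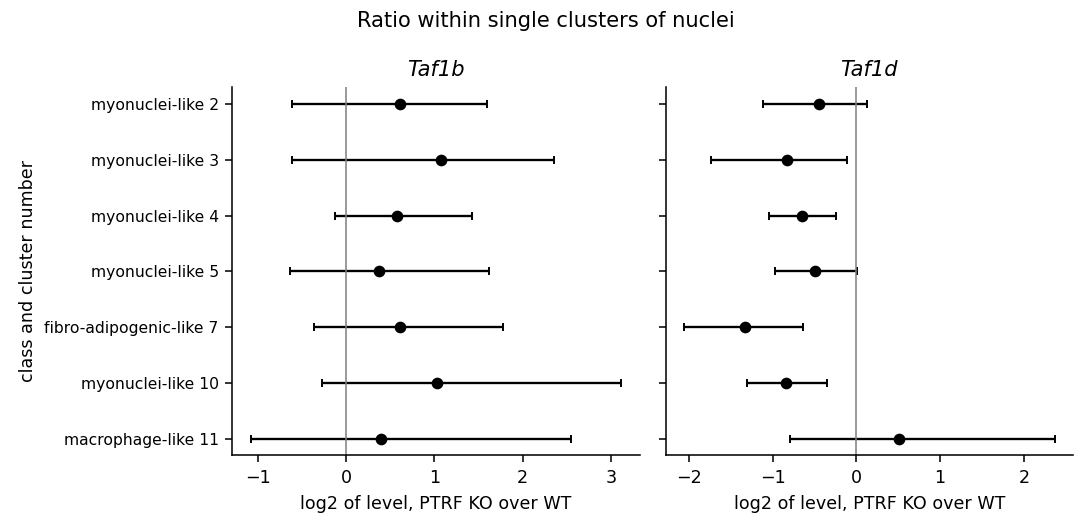
Log2 ratio of Taf1b and Taf1d, PTRF KO over WT, in each of the 7 clusters with at least 100 nuclei of both libraries, with exact 95% counting intervals. All 7 points of Taf1b lie above 0, and 6 of the 7 points of Taf1d lie below 0, the exception being the macrophage-like cluster 11.

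Between classes of nuclei, Ubtf was higher in adipocyte-like and fibro-adipogenic-like nuclei than in those of muscle fibres. In the knockout, Ubtf was at 55.9 CPM in 1078 adipocyte-like nuclei and 49.1 CPM in 610 fibro-adipogenic-like nuclei (resident fibroblast-type progenitors of muscle), against 19.4 CPM in myonuclei-like nuclei. These are log2 ratios of 1.53 (1.19 to 1.86) and 1.36 (0.80 to 1.84). In WT, with 255 adipocyte-like and 405 fibro-adipogenic-like nuclei, the levels were 43.6 CPM and 39.1 CPM against 20.3 CPM, log2 ratios of 1.17 (0.08 to 1.98) and 0.99 (0.05 to 1.74). Ubtf was also at 52.2 CPM in 151 satellite-like nuclei of WT, on 7 UMIs. That class was named from markers of muscle stem cells, but its titin level was 95.1% of that of WT myonuclei-like nuclei. In macrophage-like nuclei it was at 25.3 CPM in the knockout and 17.6 CPM in WT, on 9 and 2 UMIs, and both intervals against myonuclei-like nuclei took in 0.

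Polr1d and Ttf1 were also higher in adipocyte-like than in myonuclei-like nuclei. Polr1d was at 36.8 CPM in adipocyte-like and 13.6 CPM in myonuclei-like nuclei of the knockout (log2 ratio 1.44, 1.02 to 1.83), and at 23.8 CPM and 8.08 CPM in those of WT (1.66, 0.06 to 2.76). Ttf1 was at 24.5 CPM in adipocyte-like and 12.4 CPM in myonuclei-like nuclei of the knockout (0.99, 0.49 to 1.45), and at 43.6 CPM and 15.5 CPM in those of WT (1.55, 0.45 to 2.38). In fibro-adipogenic-like nuclei of the knockout both intervals took in 0, with log2 ratios to myonuclei-like nuclei of 0.49 for Polr1d and 0.41 for Ttf1. In those of WT the log2 ratios were 1.54 (0.20 to 2.53) and 1.38 (0.42 to 2.13), for the same genes. Polr1a went the other way. It was at 32.9 CPM in adipocyte-like, 23.9 CPM in fibro-adipogenic-like and 48.4 CPM in myonuclei-like nuclei of the knockout, with log2 ratios to the last of -0.55 (-0.95 to -0.19) and -0.98 (-1.79 to -0.35). In WT it was at 27.9 CPM in fibro-adipogenic-like and 57.4 CPM in myonuclei-like nuclei (-0.97, -2.11 to -0.15). In adipocyte-like nuclei of WT it was at 35.7 CPM, with an interval that took in 0 (-0.61, -1.82 to 0.25). In the knockout thinned to 500 UMIs per nucleus, Polr1a was in 0.464% of adipocyte-like and 2.48% of myonuclei-like nuclei. At 1000 UMIs it was in 4.23% and 4.48%, and the intervals overlapped. That of fibro-adipogenic-like nuclei overlapped the myonuclear interval at both depths. Between adipocyte-like and myonuclei-like nuclei the intervals of Ttf1 overlapped at both depths, and those of Polr1d at neither. In WT they overlapped for each of these genes.

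These class differences stand against a high background. Of the 9 members measured in adipocyte-like over myonuclei-like nuclei of the knockout, 5 were higher past 1.5-fold, where 45.2% of all genes were, and 0 lower, where 19.7% were. In WT it was 4 of 8 higher, where 44.9% of genes were, and 1 lower, where 20.2% were. For fibro-adipogenic-like nuclei of the knockout 1 of 8 was higher, where 41.2% were, and 3 lower (Polr1a, Rrn3 and Taf1d), where 19% were. In WT 3 of 8 were higher, where 42.7% were, and 1 lower, where 14.5% were. For macrophage-like nuclei of the knockout 2 of 8 were higher, where 41.2% were, and 1 lower, where 17.9% were, and for those of WT 4 of 8 were higher, where 49.4% were, and 2 lower, where 15.9% were. Titin (Ttn) UMIs, which belong to muscle fibres, were found in the other classes too, at 16.8% of the myonuclear level in adipocyte-like, 36.5% in fibro-adipogenic-like and 52.2% in macrophage-like nuclei of the knockout. In WT the shares were 32.1%, 63.8% and 53.3%, for the same classes, and they were 67.2% in mural-like and 95.1% in satellite-like nuclei. The part of free or adhering muscle RNA in the class levels was not tested. Classes of the knockout also differed in sex signal. Of knockout nuclei with Xist alone, 711 were adipocyte-like and 574 myonuclei-like. Of those with Y-linked UMIs alone, 75 and 2744 were, in that order. Whether sex signal contributes to the class differences was not tested.

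Between genotypes, the smaller classes were too thinly covered to add much. In fibro-adipogenic-like nuclei Taf1d had 34 UMIs in the knockout and 40 in WT, or 45.1 CPM and 112 CPM, a log2 ratio of -1.31 (-2.01 to -0.61), and Ttf1 12 and 14 UMIs, or 15.9 CPM and 39.1 CPM, a log2 ratio of -1.29 (-2.54 to -0.08). Taf1b was at 50.4 CPM in the knockout and 30.7 CPM in WT (0.67, -0.28 to 1.83), a ratio that turned to -0.073 after thinning to 500 UMIs. Of 6 members measured there, 1 was higher, where 32.1% of genes were, and 2 lower, where 13.5% were. In adipocyte-like nuclei Taf1d was at 69.2 CPM in the knockout and 103 CPM in WT (-0.60, -1.19 to 0.09), a ratio that turned to 0.055 after thinning to 500 UMIs, and Taf1b at 40.7 CPM and 39.7 CPM, in that order (-0.02, -0.91 to 1.15). None of the 8 members measured there had an interval that excluded 0; 0 were higher, where 31% of genes were, and 2 lower, where 21.4% were. Most knockout adipocyte-like nuclei were in cluster 6 (1072 nuclei) and most of those of WT in cluster 12 (238 nuclei), which had no adipocyte marker among its 10 leading genes. In macrophage-like nuclei (220 in the knockout and 133 in WT) only 2 members reached 20 UMIs, and 0 passed 1.5-fold in either direction, where 27.8% and 14.1% of genes were higher and lower.

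**Figure D4:**
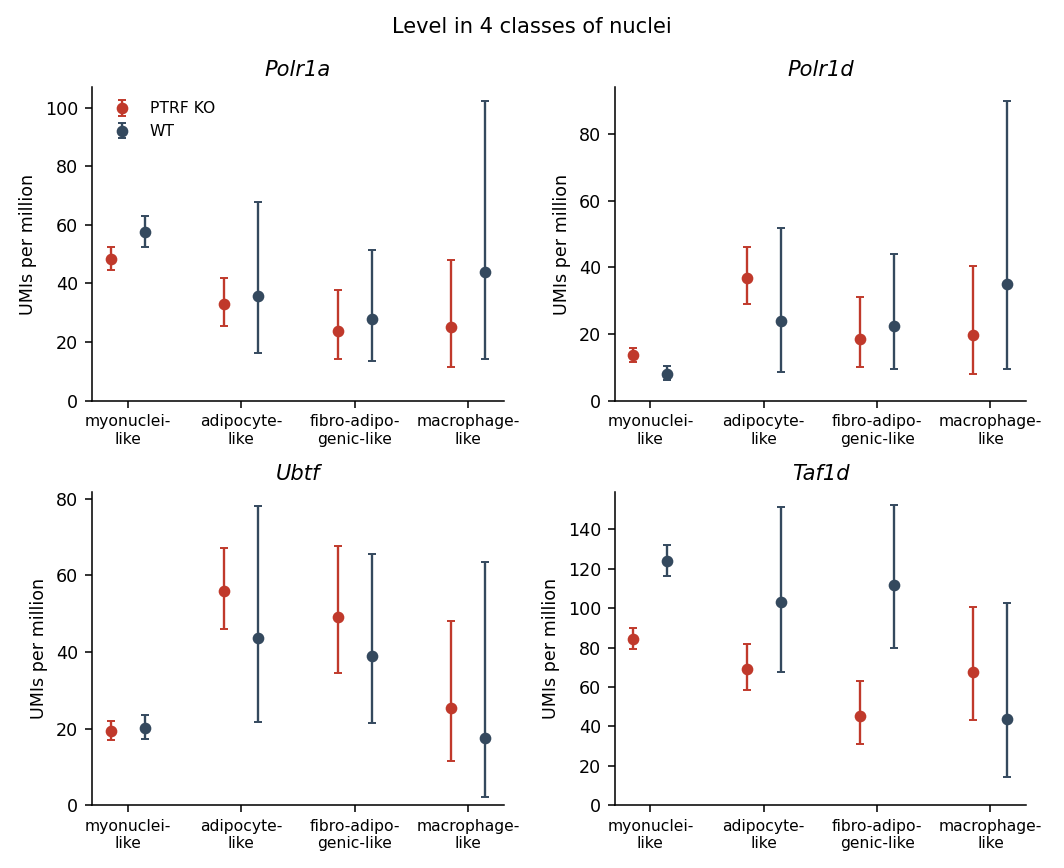
Level of 4 of the genes in CPM, in 4 classes of nuclei with at least 100 nuclei in each library, for PTRF KO (red) and WT (dark), with exact Poisson intervals. Ubtf and Polr1d are lowest and Polr1a is highest in myonuclei-like nuclei of the PTRF KO, and Taf1d is lower in PTRF KO than in WT myonuclei-like nuclei (84.5 and 124 CPM).

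The other classes with at least 50 nuclei were present at that size in 1 library only, or had few UMIs. In the knockout, Polr1d was at 35.4 CPM and Taf1d at 44.2 CPM in 168 lymphatic endothelial-like nuclei, on 8 and 10 UMIs. The log2 ratios to myonuclei-like nuclei were 1.46 and -0.86, with both intervals off 0. Those of the other members took in 0, and the share of all genes past 1.5-fold was not computed for this class. The 51 lymphocyte-like nuclei of the knockout had 26 UMIs of the 10 genes in all, at 416 CPM, the highest summed level of the classes with at least 50 nuclei, with an interval of the log2 ratio to myonuclei-like nuclei from 0.13 to 1.30. In 958 WT nuclei of a repeat-led cluster that was left unnamed, the summed level was 236 CPM against 283 CPM in WT myonuclei-like nuclei. In mural-like nuclei (89 in the knockout and 111 in WT) Polr1d had 0 UMIs in both libraries, which by a limit of 3 UMIs allows up to 25.6 CPM in the knockout and 29.9 CPM in WT.

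Over all nuclei, Taf1d was lower in the knockout in each of 4 bins of depth. In nuclei of 500 to under 1000, 1000 to under 2000, 2000 to under 4000 and 4000 or more UMIs it was at 59.1, 81.0, 75.6 and 88.4 CPM in the knockout. In the same bins it was at 111, 118, 135 and 154 CPM in WT, with log2 ratios of -0.91, -0.54, -0.84 and -0.81 and all 4 intervals below 0. Taf1b was at 44.6, 32.0, 41.5 and 36.0 CPM in the knockout and at 21.1, 22.6, 26.2 and 26.9 CPM in WT, with an interval above 0 in the lower 3 bins. It was higher in the knockout in each bin.

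Over all nuclei, Polr1d and Ubtf differed most in the shallowest bin. The bins match depth and not the mix of classes. In the shallowest, 880 of 1950 knockout nuclei and 4228 of 5338 WT nuclei were myonuclei-like. Polr1d was at 30.2, 16.3, 16.8 and 15.7 CPM over the 4 bins in the knockout and at 8.94, 8.20, 11.0 and 5.38 CPM in WT, with an interval above 0 in the lower 2 bins. Within myonuclei-like nuclei its log2 ratio was 0.97, 0.88, 0.72 and 0.98 over the bins, from shallow to deep. The intervals were -0.19 to 2.00, 0.05 to 1.81, -0.13 to 1.79 and -0.45 to 3.51, so that all but the second took in 0. The deepest of these bins had 3 UMIs of Polr1d in WT. Ubtf was at 47.9, 29.1, 25.7 and 17.0 CPM in the knockout and at 26.3, 20.5, 20.1 and 14.4 CPM in WT, and fell with depth in both. In the shallowest bin its log2 ratio was 0.87 (0.41 to 1.32) over all nuclei and 0.44 (-0.35 to 1.14) in myonuclei-like nuclei. Polr1a was at 42.7, 44.8, 47.2 and 42.7 CPM in the knockout and at 59.9, 52.0, 53.7 and 61.0 CPM in WT, lower in the knockout in each bin, with an interval below 0 in the first alone. Within myonuclei-like nuclei of the first bin its log2 ratio was -0.10 (-0.62 to 0.37). For the 10 genes together the log2 ratio was 0.02, -0.04, -0.24 and -0.37 from the shallowest to the deepest bin. This sum leans on Taf1d, which in the deepest bin supplied 395 of 1097 UMIs in the knockout and 86 of 176 in WT. The deepest bin held 796 knockout and 110 WT nuclei.

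**Figure D5:**
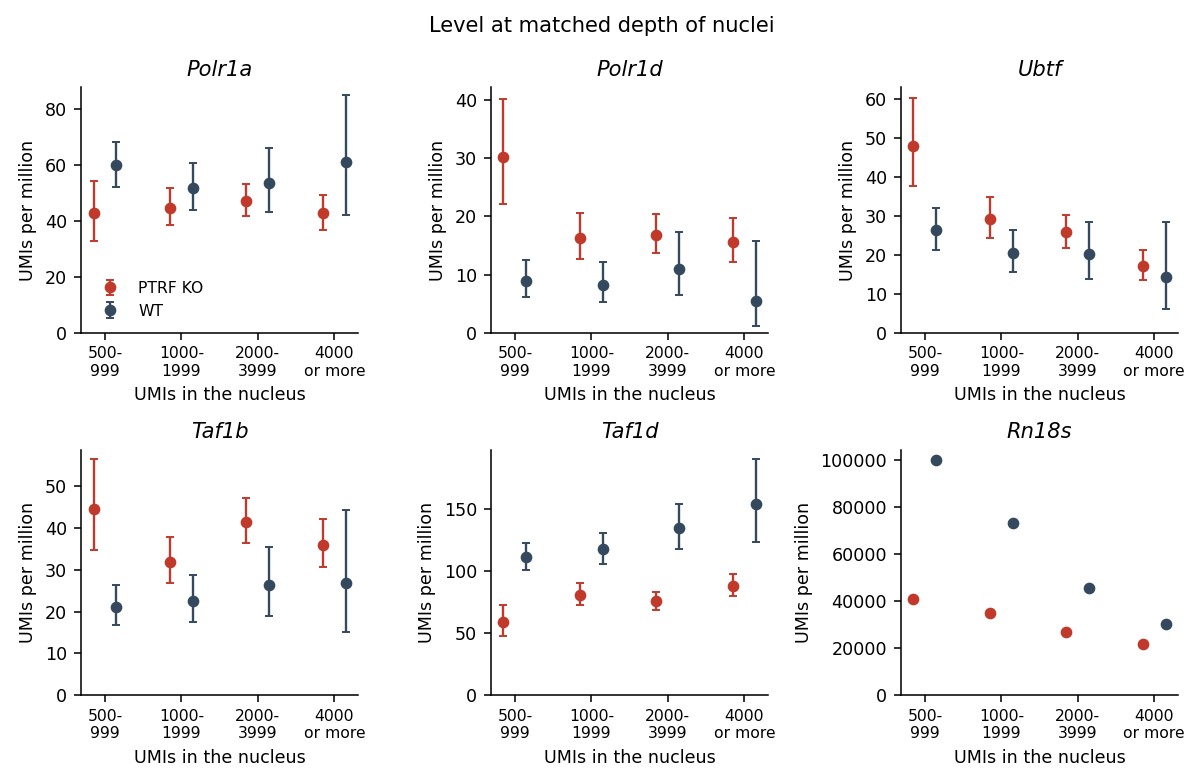
Level of 5 of the genes and of Rn18s in CPM, by the number of UMIs in the nucleus, for PTRF KO (red) and WT (dark), with exact Poisson intervals. Taf1d is lower and Taf1b higher in PTRF KO in each bin, and the gap in Rn18s narrows toward deep nuclei.

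The share of nuclei with a UMI of any of the 10 genes, thinned to 500 UMIs each, was 12.3% in the knockout (952 of 7762 nuclei) and 12.8% in WT (1051 of 8217), and the Clopper-Pearson intervals overlapped. In WT 2055 nuclei were too shallow for this, in the knockout 0. As sequenced, the shares were 37.1% and 21.4%, in that order, so that the gap seen as sequenced was not seen at matched depth. Taf1d alone was found in 3.72% of thinned knockout nuclei and 5.25% of thinned WT nuclei, and Polr1a in 2.06% and 2.84%. Taf1b was found in 1.80% of knockout and 1.13% of WT nuclei, Polr1d in 1.03% and 0.535%, and Ubtf in 1.69% and 1.12%, in the same order. The intervals of the 2 libraries did not overlap for any of these 5 genes at 500 UMIs over all nuclei. At 1000 UMIs those of Polr1a and Ubtf overlapped, and at 500 UMIs within myonuclei-like nuclei those of Polr1a, Polr1d, Ubtf and Taf1b did, while those of Taf1d did not in either setting.

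Some levels also differed between nuclei with different sex signals, which differed in their mix of classes too. Over all nuclei the sex signal and the mix of classes cannot be told apart, and neither was tested as a cause. Knockout nuclei with Xist alone, knockout nuclei with Y-linked UMIs alone and WT nuclei with Y-linked UMIs alone were at 27.9, 12.4 and 7.71 CPM for Polr1d and at 40.4, 20.9 and 19.9 CPM for Ubtf. Adipocyte-like nuclei made up 46.6%, 2.42% and 2.98% of these 3 sets. The sets also differed in depth, with medians of 1438, 2232 and 1019 UMIs per nucleus, in the same order. Within myonuclei-like nuclei alone, Xist-marked knockout over Y-marked WT nuclei gave a log2 ratio of 1.55 for Polr1d and -0.42 for Ubtf, against 1.84 and 1.01 over all classes, for the same genes. Taf1d was at 87.7, 80.9 and 128 CPM over the same 3 sets and Taf1b at 41.8, 36.4 and 24.2 CPM, so that both knockout sets lay on the same side of WT. Within myonuclei-like nuclei alone, Xist-marked knockout over Y-marked WT nuclei gave 0.61 for Taf1b but only -0.20 for Taf1d. Among Y-marked myonuclei-like nuclei of both libraries Taf1d was at -0.65. Polr1a was at 41.1, 46.8 and 58.8 CPM. Among nuclei with Y-linked UMIs alone in both libraries, the log2 ratio was -0.66 for Taf1d, 0.58 for Taf1b, 0.67 for Polr1d, -0.33 for Polr1a and 0.06 for Ubtf.

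The product of polymerase I was seen only through Rn18s, the 18S ribosomal RNA feature in the tables. Ribosomal RNA has no polyA tail of its own, and how it entered these polyA-primed libraries was not tested. Rn18s was at 28958 CPM in the knockout and 80670 CPM in WT, a log2 ratio of -1.48. By depth of nuclei, from the shallowest to the deepest bin, it was at 41136, 34837, 27108 and 21667 CPM in the knockout and at 100203, 73404, 45658 and 30290 CPM in WT. The log2 ratio was -1.28, -1.08, -0.75 and -0.48 over these bins, so that the gap was smaller in deeper nuclei. Rn18s was lower in the knockout in each class compared, with log2 ratios of -1.42 in myonuclei-like, -1.64 in adipocyte-like, -1.58 in fibro-adipogenic-like and -1.37 in macrophage-like nuclei. These class ratios were not taken at matched depth. Within myonuclei-like nuclei the log2 ratio over the 4 bins, from the shallowest to the deepest, was -1.04, -0.97, -0.70 and -0.45.

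Among other genes of the pathway, those for processing of the ribosomal RNA precursor were past 1.5-fold lower about as often as all genes were. Of 19 measured over all nuclei, 0 were higher past 1.5-fold and 5 lower, against 20% and 27.1% of all genes, with a median log2 ratio of -0.26. Nop56, a core protein of the box C/D snoRNPs that methylate ribosomal RNA, was at 16.5 CPM in the knockout and 35.6 CPM in WT (log2 ratio -1.11), and Nop14, of the small-subunit processome, at 8.16 CPM and 15.8 CPM (-0.95). Utp18, of the same processome, had a log2 ratio of 0.48 and the nucleolar chaperone Npm1 one of 0.32. In myonuclei-like nuclei 0 of 19 were higher, where 12.6% of all genes were, and 6 lower, where 30.8% were.

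The other parts of the machinery were mixed, and their counts over all nuclei stand against 20% of all genes higher and 27.1% lower. Of 8 further subunits of polymerase I, 1 was higher and 1 lower, with a median log2 ratio of 0.29, and Polr1f was at -0.54 and Polr2h, a subunit shared by the 3 polymerases, at 0.43. Of 4 initiation partners, 0 passed 1.5-fold: the SL1 subunits Taf1a and Taf1c were at 0.00 and -0.50, and Tbp at 0.28. The remaining partner was Rrn3 (0.07), which is also 1 of the 10 genes and is counted in both lists. Of 17 regulators of the ribosomal DNA and polymerase I, 3 were higher, among them Top1 (topoisomerase I, log2 ratio 1.05) and Rb1 (the retinoblastoma protein, 0.77). In the same list 2 were lower, Tcof1 (treacle, a partner of Ubtf, -0.62) and Mybbp1a (-0.67). Of 8 polymerase II subunits 1 was higher and 0 lower (median 0.16), and of 10 subunits particular to polymerase III 1 was higher, Polr3k at 1.11, and 1 lower, Polr3d at -1.35 (median -0.04). Of 81 ribosomal protein genes 22 were higher and 2 lower over all nuclei (median 0.32). In myonuclei-like nuclei 2 of the 81 were higher, where 12.6% of all genes were, and 19 lower, where 30.8% were, with a median of -0.33 against -0.11 over all genes.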

How the data were processed

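The authors deposited unnormalised UMI counts for each gene in each barcode, and per the file headers the software was Cell Ranger 6.0.0. STAR, Seurat 4.1.1, mm10 and GRCm38 are named in the submitters' processing notes. No source used here gives the annotation release, the counting of introns, the use of strand or the calling of nuclei. The 10 genes, the lists and the markers were chosen with earlier results of these data known.

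A nucleus was kept if it had 200 genes or more and mitochondrial UMIs of 5% or less. UMIs were summed per library and class, and ratios of CPM taken with 0.5 UMI added to each sum, with exact conditional binomial intervals for ratios, exact Poisson intervals for sums and Clopper-Pearson intervals for shares, all at 95%. UMIs of 1 nucleus are not independent samples of a condition, and no test was made between genotypes. Genes count as past 1.5-fold by size alone, among those with at least 20 UMIs. Thinning drew 500 UMIs per nucleus without replacement (seed 7).

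Both libraries were clustered together, without integration, with scanpy 1.11.5 and leidenalg 0.10.2 (2000 variable genes, 30 components, 15 neighbours, resolution 1, giving 23 clusters). A cluster was named from a marker score of at least 2 on at least 3 detected markers. The score cut, and the rules that left repeat-led clusters unnamed and called the rest myonuclei by pan-myonuclear transcripts, were set with the data known. Ratios within a class needed 100 nuclei of each library and levels 50. The ratio script was checked on simulated counts. Gene positions came from GENCODE M21 on GRCm38, in which 52093 of 53700 feature IDs matched, and start regions from RefSeq on GRCm38.p6. All 10 genes are named. Genes of the other lists are named where they had at least 100 UMIs and were among the 2 highest or the 2 lowest of their list.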

Additional observations from a re-analysis of the deposited data

How the results depend on the processing

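Results over all nuclei were recomputed under 15 alternatives (for Polr1c 10 and for Polr1e 9, since the others left fewer than 20 UMIs). Polr1d stayed above 0 and past 1.5-fold in all 15 (log2 ratio 0.67 to 1.84), Taf1b stayed above 0 in 15 and past 1.5-fold in 12 (0.55 to 0.79), and Taf1d stayed below 0 in 15 and past 1.5-fold in 12 (-0.69 to -0.51). Polr1a stayed below 0 in all 15 (-0.51 to -0.03), Ubtf above 0 in all 15 (0.06 to 1.01). The summed level of the 10 genes moved to -0.23 with totals taken without Rn18s, Malat1 and mitochondrial genes, to -0.26 in Y-marked nuclei and to 0.058 for Xist-marked knockout against Y-marked WT nuclei. The members higher past 1.5-fold numbered 4 after thinning to 500 UMIs, where 30.8% of all genes were higher. They numbered 4 for Xist-marked against Y-marked nuclei, where 38.8% were, and 0 past 2-fold, where 8.51% were. They numbered 4 after thinning to 1000 UMIs and 1 with knockout classes weighted as in WT. For these last settings the share of all genes higher is not given here, so the counts are not read as a result about the members. The members lower numbered 0 for Xist-marked against Y-marked nuclei and 0 past 2-fold. Of all genes, the share lower was 17.2% in nuclei of at least 1000 UMIs, 13.6% after thinning to 1000, 16.1% for Xist-marked against Y-marked nuclei, 51% with no minimum of UMIs and 14.3% in Y-marked nuclei thinned to 500 UMIs, an alternative chosen after seeing the data. The share higher was 30.8% after thinning to 500, 13.3% in Y-marked nuclei, 38.8% for Xist-marked against Y-marked nuclei and 8.51% past 2-fold. The median of all genes moved by over 0.1 in thinned nuclei, to 0.24 at 500 UMIs.

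In myonuclei-like nuclei the members lower past 1.5-fold numbered 1 with at least 500 genes, 1 after thinning to 500 UMIs, 1 with totals without Rn18s, Malat1 and mitochondrial genes and 2 in Y-marked nuclei, where 21.4%, 22.7%, 32.7% and 20.8% of all genes were lower. The summed level moved to -0.082 with median ratio scaling and to -0.038 for Xist-marked against Y-marked nuclei. There Taf1d was at -0.20, and Ubtf had either sign over 8 alternatives. Without thinning, the share of nuclei with a UMI of the 10 genes was 15.6 percentage points higher in the knockout. After thinning to 500 UMIs the sign turned for Taf1d in adipocyte-like nuclei (0.055) and for Taf1b in fibro-adipogenic-like nuclei (-0.073). The cause of these moves was not tested. No paired analysis was possible because each genotype has 1 library, and none could be left out. Levels under 2 CPM (Polr1c and Polr1e) are limited by depth.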

Other observations

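Of 10855 genes with at least 100 UMIs, those whose log2(CPM + 1) followed Taf1d most closely over 12 groups of nuclei (classes by library with at least 100 nuclei) were Gm32200 (Pearson r 0.93), 2610206C17Rik (0.92), Gm16093 (0.90), Akap8 (0.88) and Gm50230 (0.88). In all, 55 genes had r above 0.8. The groups share 2 libraries with their depths, and some rest on few UMIs of Taf1d, so this is a description with no test.

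The log2 ratio of genes varied with their length. In 5 length groups of like size from the shortest to the longest, the median log2 ratio of genes between 1 and 100 CPM was 0.25, 0.11, 0.08, -0.02 and -0.68. Polr1a lies in the group of the longest genes and was above the median of it, and Taf1d lies in the next to shortest, with Ubtf and Polr1e, and was below the median of it. Taf1b and Polr1d lie in the group whose median is -0.02, and both were above its upper quartile of 0.41. Whether length contributes to the differences of these genes was not tested.

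Of the cavin family, Cavin2, the partner of Cavin1 in fat and endothelial caveolae, was at 33.0 CPM in the knockout and 7.29 CPM in WT (log2 ratio 2.17) over all nuclei, of which adipocyte-like nuclei were 13.9% in the knockout and 2.48% in WT. In myonuclei-like nuclei it was at 0.568 CPM in the knockout and 1.99 CPM in WT, on 7 and 16 UMIs. Over all nuclei Cavin4, the muscle member, was at 28.3 CPM in the knockout and 28.5 CPM in WT (-0.01).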
